A study of Mus musculus with 2 samples.

Results

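The bone region at the fracture site of the Control femur was divided into its 2 sides, and the expression of all genes was compared between them. The region held 67 spots on side 1 and 64 on side 2 of a Visium section, chosen by the authors from the histology as the bone spots between the inner pins of the external fixator, out of 1962 spots under tissue in this section and 3398 in both sections of the series. Spot positions were projected on the minor principal axis of the region and divided by 2-means, a clustering into 2 groups around their means. No expression value entered this division, and the numbers are only names, because the section was not oriented anatomically here. The study asked how cyclic mechanical loading changes gene expression at healing fracture sites. Female bone cell reporter (BCR) mice received a femoral osteotomy at 12 weeks of age and were killed at 17 weeks. After the defect had bridged, Control mice were sham-loaded through the external fixator and Loaded mice received cyclic loading, and 1 femur of each group was sectioned. All mice of both groups carried the reporter alleles, in which eGFP was inserted at *Ibsp* and mCherry at *Acp5*, so these genes are tagged loci in every sample. Because all bone spots belonged to 1 section of 1 mouse, spots were not replicates, no test was possible, and no value below includes the variation between mice.

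In a longitudinal section of a long bone, the shaft appears as a pair of cortical walls with the marrow cavity between them. The outer surface of each wall is covered by periosteum, a fibrous layer rich in collagens and small proteoglycans, to which tendons and muscles attach. Muscles differ along and around the femur: fast fibers use fast myosins and glycolysis, whereas slow fibers use slow myosins and contract for longer. Within bone, osteoblasts deposit type I collagen and the proteins that mineralize it, osteocytes lie buried in the matrix, and osteoclasts resorb it.

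Transcripts were counted by unique molecular identifiers (UMIs), tags that mark single captured molecules. Side 1 held 265224 UMIs, with a median of 2652 per spot (range 1363 to 21346), and side 2 held 292035 UMIs, with a median of 3856.5 (range 2059 to 13046). A normalized count per spot was the sum of a gene's UMIs over a side, over the sum of the size factors that scran, the tool of the study, gave its spots. Differences are given as *Gene* (log2 ratio of normalized counts, side 2 over side 1), so positive values are higher in side 2. Intervals at the 95% level are exact conditional binomial intervals for ratios and exact binomial intervals for shares, and cover counting error only. In spots that hold several cells, fewer cells of a type and less RNA per cell cannot be told apart. The bone spots formed a pair of contiguous bands 1090 µm apart (mean distance across the shaft), of 69 and 62 spots. The minor axis was tilted against them: the shaft ran at 20.1° to the major axis, there was no wide gap at the division (34.2 µm), and 2 spots of side 2 lay in the band of side 1. To show variation within a side, both sides were cut at the same levels into 4 segments of equal length along the shaft, which held 6, 15, 19 and 27 spots in side 1 and 15, 20, 14 and 15 spots in side 2. Segment 4 contributed 67.9% of the UMIs of side 1 and 18.7% of those of side 2. Ratios over all spots of the sides therefore weigh the levels of the shaft unequally and mix side with position along it.

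**Figure D1:**
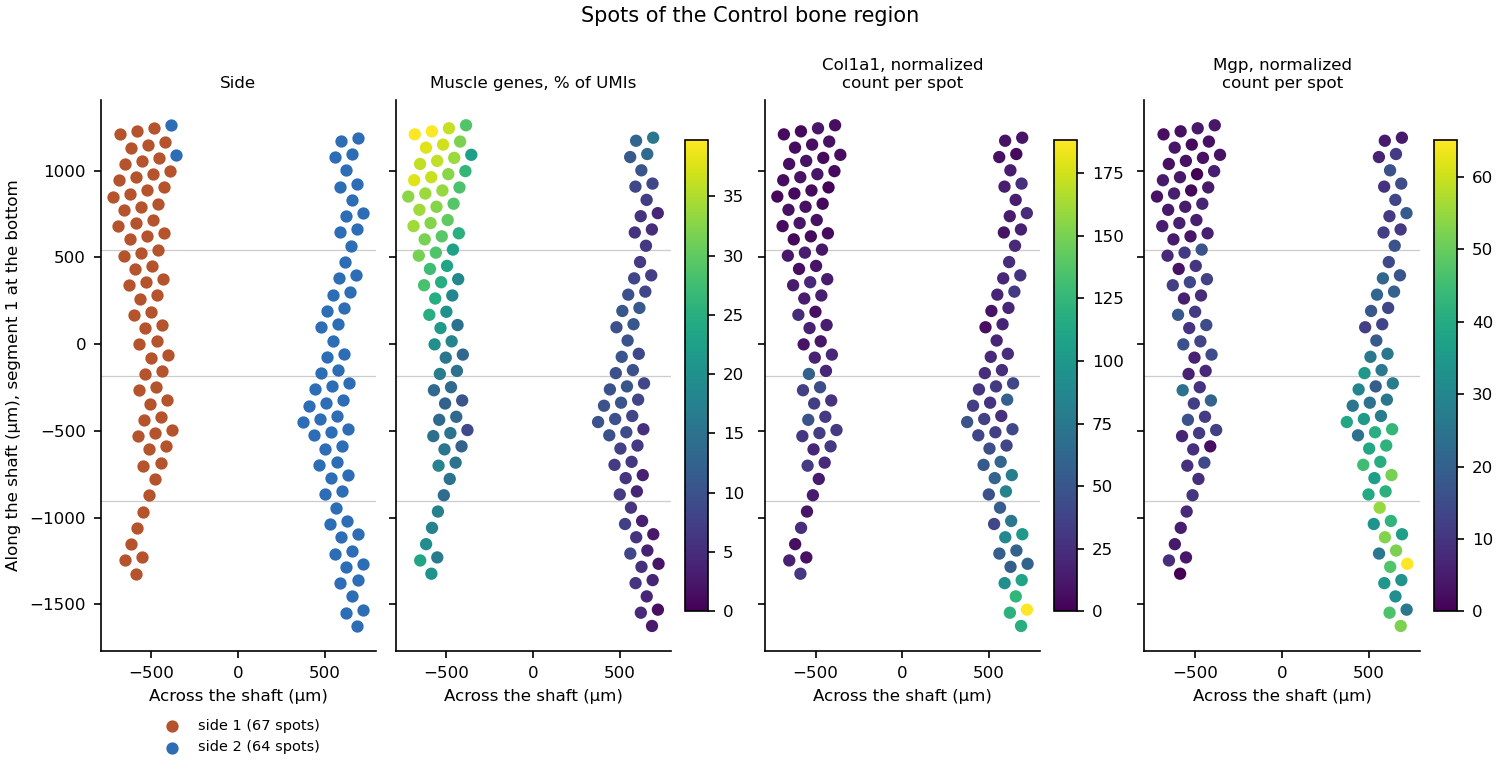
Spots of the Control bone region, drawn to scale across (x axis) and along (y axis) the shaft in µm, with grey lines between the 4 segments. From left to right, color shows the side, the share of UMIs from fast and slow muscle genes, and the normalized counts of *Col1a1* and *Mgp*; muscle shares peaked at the upper end of side 1 (39.8% in the highest spot) and *Col1a1* at the lower end of side 2 (188 in the highest spot).

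The sides differed in many genes in both directions. Of 2007 genes with at least 50 UMIs over both sides (of 19465 in the files), 325 (16.2%) were at least 2-fold higher in side 2 and 343 (17.1%) at least 2-fold higher in side 1, with a median log2 ratio of -0.07. Genes whose 4 segments along the shaft all lay above those of the other side were fewer: 104 (5.18%) were also at least 2-fold higher in side 2 and 99 (4.93%) in side 1. With segments cut along the major axis, where segment 1 of side 1 held 1 spot, these were 84 (4.19%) and 46 (2.29%). The percentages are the background against which each list below is read. Division by library totals in place of size factors moved all ratios toward side 2, by 0.42 on the log2 scale, and changed the counts to 545 genes higher in side 2 and 166 higher in side 1.

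**Figure D2:**
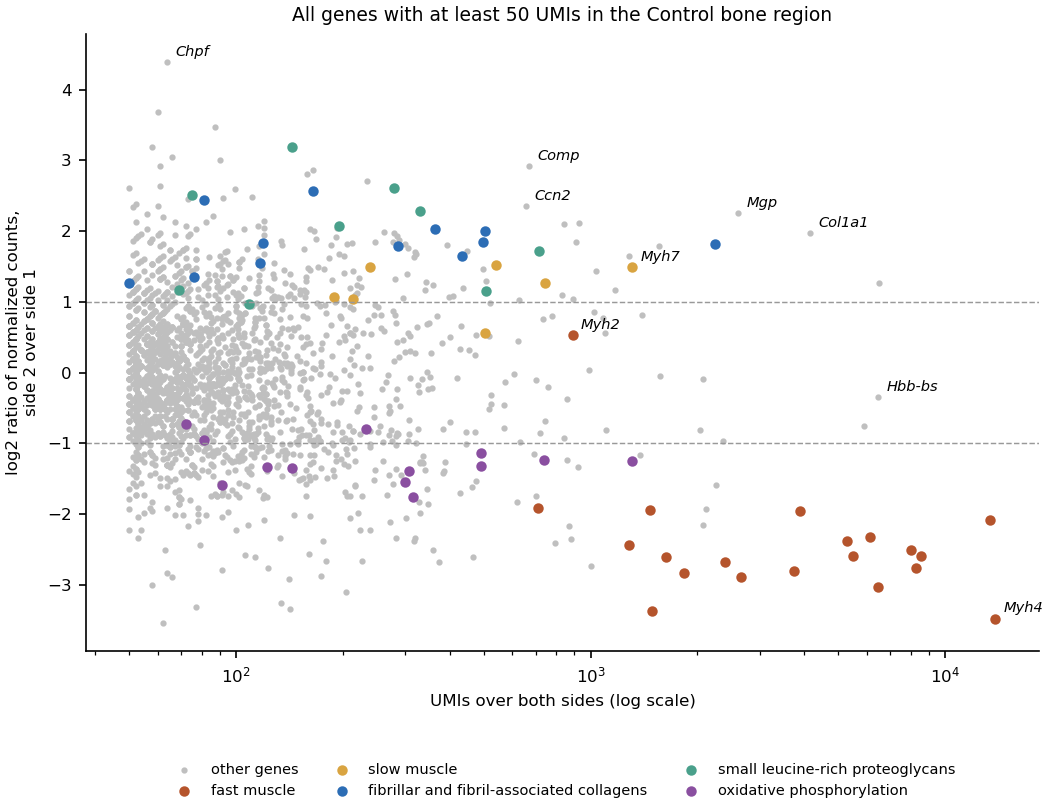
Each point is 1 of the 2007 genes, placed by its UMIs over both sides (log scale) and its log2 ratio of side 2 over side 1; dashed lines mark 2-fold. Fast muscle genes lie lowest among the most abundant genes, down to *Myh4* at -3.47, and collagens and small leucine-rich proteoglycans lie above the upper line or close to it.

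Fast muscle genes gave the largest difference by abundance. Together they made up 29.4% (29.2 to 29.6) of the UMIs of side 1 and 6.66% (6.57 to 6.75) of those of side 2, and 19 of the 20 genes were at least 2-fold higher in side 1, with a median of -2.59. *Myh4*, the myosin of the fastest fibers, had 12234 UMIs in side 1 and 1625 in side 2 (-3.47; interval -3.55 to -3.40), which is 11.1-fold. Its normalized counts in segments 1 to 4 were 125, 78.3, 159 and 291 in side 1, and 16.6, 16, 17.3 and 39.7 in side 2. Every segment of side 1 thus lay above every segment of side 2. The same held for *Pvalb* (-3.03), the calcium buffer of fast fibers, *Ckm* (-2.58), the creatine kinase of muscle, and *Atp2a1* (-2.76), the calcium pump of fast fibers. *Mybpc2* (-3.37), a fast myosin-binding protein, was the second lowest of the list. *Acta1* (-2.09), skeletal actin, and *Myh1* (-1.94), the myosin of type IIx fibers, differed less. The exception was *Myh2*, the myosin of the fast oxidative type IIa fibers, which had 284 UMIs in side 1 and 606 in side 2 (+0.53; interval 0.33 to 0.74). In each segment *Myh4* was less far apart than over all spots. So was *Mybpc2*, with -2.76, -1.66, -3.19 and -2.70 in segments 1 to 4. As means of the shaft segments, 19 of the 20 fast muscle genes were at least 2-fold higher in side 1 and 1 in side 2 (median -2.14). Against them stood 13.8% and 15.9% of all genes.

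Slow muscle genes pointed the other way. They made up 0.31% of the UMIs of side 1 and 1.01% of those of side 2, and of the 7 members with at least 50 UMIs (of 9 in the files and 10 in the list) 6 were at least 2-fold higher in side 2, with a median of +1.27. Without shaft segment 3 it was 3 of 7 (median +0.91), against 18.3% of all genes. *Myh7*, the slow myosin, had 254 and 1054 UMIs (+1.49; interval 1.29 to 1.69). Its normalized counts by segment were 0.78, 3.23, 7.31 and 4.65 in side 1, and 0.44, 9.34, 24 and 21.7 in side 2. Side 2 was thus higher in segments 2 to 4, and segment 1 had 2 and 7 UMIs. *Tnni1* (+1.53) and *Tnnt1* (+1.27), the slow troponins I and T, likewise peaked in segment 3 of side 2, and *Atp2a2*, the calcium pump of slow fibers, was at +0.56. Among the 4 members of the fast and slow lists that encode myosin heavy chains of single fiber types, the order from side 1 to side 2 was therefore *Myh4*, *Myh1*, *Myh2* and *Myh7*. The first 3 are neighbours on chromosome 11 of the mm10 build, with *Myh2* at 67171027 to 67197517, *Myh1* at 67200052 to 67224575 and *Myh4* at 67238029 to 67260446.

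The muscle share of single spots, both lists together, ranged from 8.89% to 39.8% in side 1, with a median of 23.4%, and from 1.55% to 29.0% in side 2, with a median of 8.13%. By segment it was 19.0%, 13.5%, 22.4% and 34.7% in side 1, and 3.89%, 7.01%, 9.31% and 10.8% in side 2, so that each segment of side 1 lay above each of side 2. These shares moved with the sides beside every group described below, and their part in the other differences was not tested. Of side 1, 28 spots had a muscle share below 20%, compared with 62 of side 2, and values from these spots alone are given with each group. This limit was chosen after the values were seen. None of the 27 spots of segment 4 of side 1 was below it, whereas most spots of segment 4 of side 2 were. Values from the spots with little muscle therefore do not compare the same levels of the shaft. In them, muscle share and position along the shaft cannot be told apart. In these spots, 16 of the 20 fast muscle genes were still at least 2-fold higher in side 1 (median -1.62), 6 of 7 slow muscle genes in side 2 (median +1.52), and *Myh2* was at +1.36. Against them stood 17.7% of all genes in side 2 and 13.1% in side 1.

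The tissue next to each side differed in the same way. Tissue spots outside the bone region and within 200 µm of a side were divided on the minor axis into outer spots and inner spots, those between the side means. Fast muscle genes took 33.1% of the UMIs of the outer and 33.1% of the inner spots next to side 1, compared with 6.58% and 6.07% next to side 2. Because of the tilt, some of these inner spots lay outside the shaft. Divided across the shaft instead, a division chosen after the positions were seen, the share was 38.0% outside side 1 and 9.98% inside it, and 6.59% inside side 2 and 5.49% outside it. In the rest of the section it was 32.5%. Slow muscle genes took 0.14% outside side 1 and 1.74% outside side 2. *Myh4* fell from 692 UMIs per 10000 outside side 1 to 461 in its bone spots and 150 inside it, whereas *Myh7* was highest outside side 2 (66.9 UMIs per 10000) and lower in its bone spots (36.1). Erythroid genes, of the red cell line in marrow, took 11.8% and 12.8% of the UMIs inside sides 1 and 2.

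**Figure D3:**
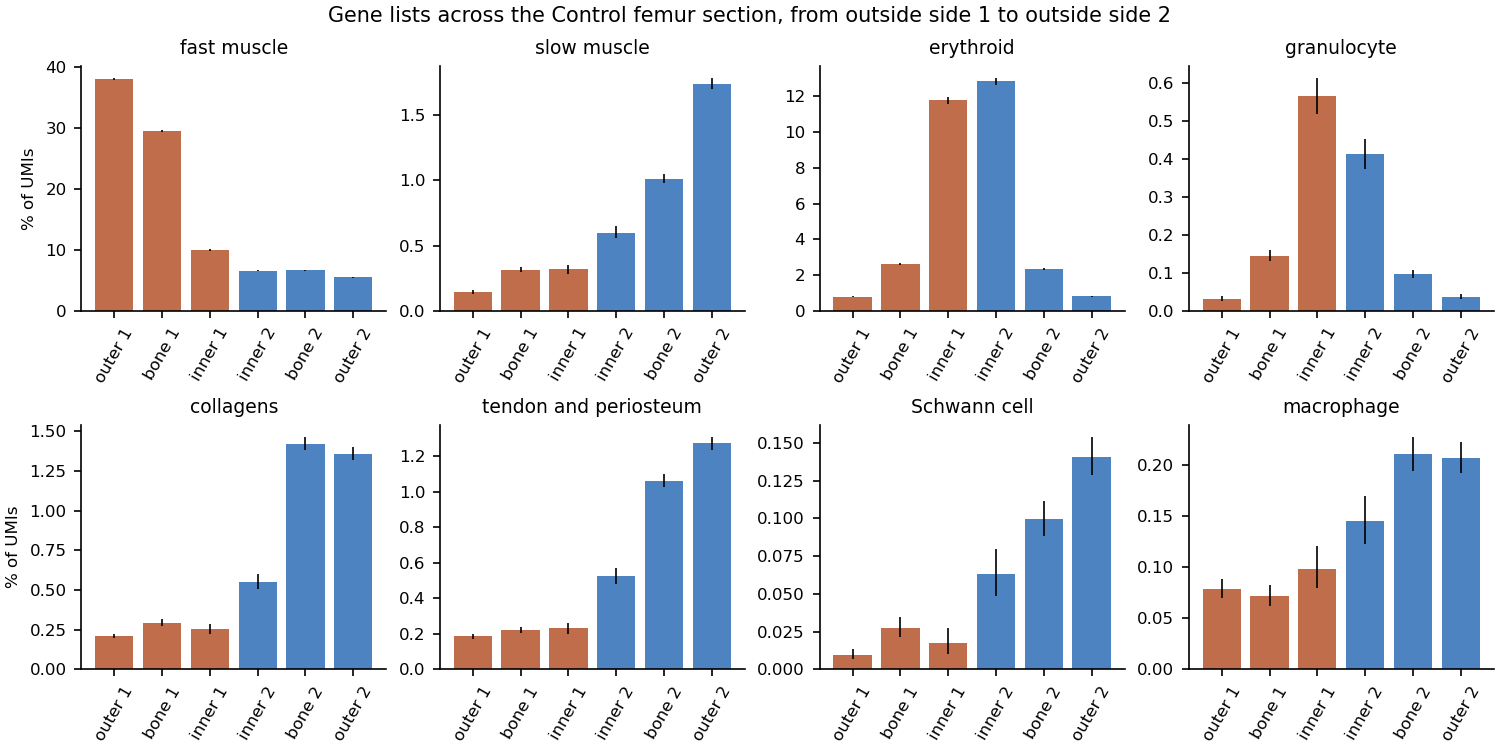
Share of UMIs (% of all UMIs, bars, with exact binomial 95% intervals as lines) of 8 gene lists in 6 groups of spots, in order across the section from outside side 1 to outside side 2, divided across the shaft. Fast muscle genes fall from 38.0% to 5.49% from left to right, erythroid genes peak inside the shaft (11.8% and 12.8%), and collagens and tendon genes are higher in the bone and outer spots of side 2.

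Collagens were higher in side 2 throughout the list over all spots. All 12 fibrillar and fibril-associated collagens of the list had at least 50 UMIs, and 12 of 12 were at least 2-fold higher in side 2, with a median of +1.83 and a range of 1.26 to 2.56. *Col3a1*, a fibrillar collagen of fibrous tissue and early callus, had 361 and 1880 UMIs (+1.82; interval 1.66 to 1.99). Its normalized counts by segment were 6.21, 10.5, 11 and 4.88 in side 1, and 31.2, 30.2, 17.7 and 12.9 in side 2. All segments of side 2 lay above those of side 1, which held for 4 of the 12 collagens. *Col5a2* (+2.0), *Col5a1* (+1.65) and *Col6a3* (+1.85), which encode chains of the collagens V and VI that join fibrils and bind them to cells, were close to it. *Col12a1* (+2.56), a fibril-associated collagen of periosteum and tendon, was the highest of the list and the most uneven, with 102 of its 148 UMIs of side 2 in segment 1. Among the spots with little muscle, 8 of 12 collagens were at least 2-fold higher in side 2 and the median was +1.09. As means of the shaft segments it was 12 of 12 (median +1.46), and without shaft segment 4 it was 9 (median +1.36). As means of the major axis segments, 8 were at least 2-fold higher in side 2 and 1 in side 1 (median +1.38). Of all genes, 21% and 15.1% were so in that setting.

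Small leucine-rich proteoglycans bind collagen and control fibril width. All 9 members with at least 50 UMIs (of 10) were higher in side 2, and 8 of them at least 2-fold, with a median of +2.08. *Fmod*, fibromodulin, had 28 and 251 UMIs (+2.60; interval 2.04 to 3.22), and its normalized counts by segment were 0.78, 0.77, 1.07 and 0.30 in side 1, and 7.02, 3.94, 0.81 and 0.84 in side 2. Side 2 was the higher one in segments 1, 2 and 4, and side 1 in segment 3. *Prelp* (+2.29), *Lum* (+2.08) and *Dcn* (+1.16; decorin) were the 3 of 9 members past 2-fold in side 2 and separated in all 4 segments. *Dcn* was at 1.64 to 3.51 in side 1 and at 3.70 to 5.63 in side 2. *Bgn* (+1.71), biglycan, had the most UMIs of the list. *Chad* (+3.18), chondroadherin of cartilage and tendon, had 113 of its 134 UMIs of side 2 in segment 1 and none in segments 3 and 4. In the spots with little muscle, 6 of 9 were at least 2-fold higher in side 2 (median +1.44).

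Tendon and periosteum genes gave 11 of 14 (of 17) at least 2-fold higher in side 2, with a median of +1.91, and 11 of 14 in the spots with little muscle (median +1.46). *Thbs4*, a thrombospondin of tendon and its junction with muscle, had 125 and 802 UMIs (+2.12; interval 1.85 to 2.40), with 0.39, 4.46, 4.58 and 1.43 by segment in side 1 and 10.0, 14.1, 8.16 and 5.89 in side 2. *Comp*, the cartilage oligomeric matrix protein, which also organizes collagen in tendon, had 55 and 616 UMIs (+2.92; interval 2.52 to 3.35), with 1.94, 2.92, 1.27 and 0.54 in side 1 and 21.8, 6.64, 3.04 and 1.47 in side 2. *Thbs4* was the 1 member of 14 past 2-fold in side 2 and separated in all segments, and *Comp* was concentrated at 1 end of side 2. *Cilp* (+1.63), a cartilage intermediate layer protein, had its highest value in segment 3 of side 2 (4.56). *Clec3b* (+0.28), tetranectin, was close to equal.

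**Figure D4:**
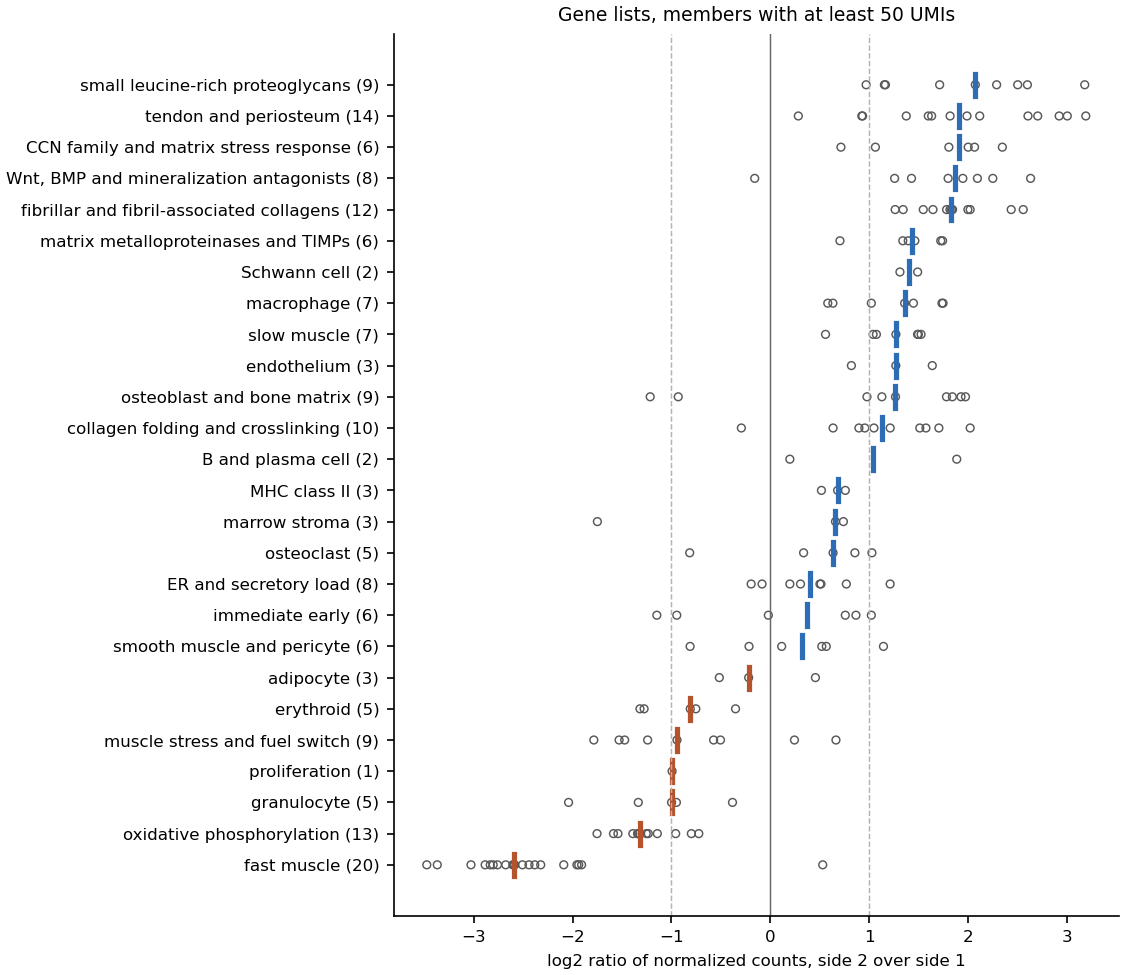
Log2 ratios of side 2 over side 1 for the members of 26 gene lists with at least 50 UMIs (circles; their number stands in parentheses), with the median of each list as a bar and dashed lines at 2-fold. Collagens, small proteoglycans, tendon genes, antagonists and the CCN family have the highest medians, from +1.83 to +2.08, and oxidative phosphorylation (-1.32) and fast muscle (-2.59) at the bottom.

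Secreted antagonists of bone formation were also higher in side 2. Of 18 antagonists of Wnt signaling, bone morphogenetic protein (BMP) signaling and mineralization, 8 had at least 50 UMIs and 7 of them were at least 2-fold higher in side 2 (median +1.87; 6 of 8 and +1.21 in the spots with little muscle). *Mgp*, matrix Gla protein, an inhibitor of mineralization, had 325 and 2286 UMIs (+2.25; interval 2.08 to 2.42). Its normalized counts by segment were 5.05, 12.0, 10.5 and 3.75 in side 1, and 43.1, 37.4, 19.6 and 11.2 in side 2. Side 2 was higher in each segment, and its lowest segment lay just under the highest of side 1. *Nbl1* (+2.10), a BMP antagonist, had 1.55 to 3.80 in side 1 and 7.36 to 12.5 in side 2 and did not overlap. Past 2-fold in side 2 and without overlap were 2 of the 8 members. *Sfrp4* (+1.80), a Wnt antagonist, ran against the course of most matrix genes along side 2, from 1.57 in segment 1 to 6.73 in segment 4. *Fstl1* (+1.43), follistatin-like 1, completed the 4 members with the most UMIs. The level of side 2 was shared with the tissue next to it. Divided across the shaft, the list took 1.33% of the UMIs outside side 2 and 1.31% in its bone spots. For side 1 these shares were 0.14% and 0.24%.

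The CCN family and related genes, matricellular proteins induced by growth factors and mechanical stress, gave 5 of 6 (of 10) at least 2-fold higher in side 2, with a median of +1.91 (4 of 6 and +1.22 in the spots with little muscle). *Ccn2*, connective tissue growth factor, had 77 and 579 UMIs (+2.35; interval 2.0 to 2.71). By segment it had 0, 2.46, 2.44 and 1.07 in side 1 and 11.9, 6.96, 6.79 and 4.21 in side 2, with no overlap. It was the 1 member of 6 past 2-fold in side 2 for which this held. *Ccn5* (+2.07), *Thbs1* (+2.0) and *Ccn3* (+1.81) followed. Divided across the shaft, this list took 0.39% of the UMIs outside side 2 and 0.42% in its bone spots. For side 1 these shares were 0.055% and 0.087%. Immediate early genes, which respond within minutes to many stimuli, did not share this direction: of 6 with at least 50 UMIs (of 14), 1 was at least 2-fold higher in side 2 and 1 in side 1, with *Jund* at +0.87, *Jun* at -0.02, *Nr4a1* at -0.95 and *Dusp1* at -1.15.

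Genes of osteoblasts and bone matrix were mostly higher in side 2, and *Bglap* and *Phospho1* went the other way. The share past 2-fold toward side 1 (11.1%) was not above that of all genes (17.1%). Of 9 members with at least 50 UMIs (of 17 in the files and 18 in the list), 6 were at least 2-fold higher in side 2 and 1 in side 1 (median +1.27). The counts were 7 and 0 with library totals (median +1.69) and 4 and 2 as means of the shaft segments (median +0.87). They were 4 and 1 without shaft segment 1 (median +0.94). Of all genes, 27.2% and 8.27%, 15.9% and 13.8%, and 15.7% and 15.4% were past 2-fold in these settings, in the same order. Members under 50 UMIs, summed, had 58 and 70 UMIs (-0.29, interval -0.81 to 0.24). *Col1a1*, the main chain of type I collagen, had 610 and 3542 UMIs (+1.98; interval 1.85 to 2.10), or 3.93-fold. Its normalized counts by segment were 15.1, 30.3, 15.6 and 6.37 in side 1, and 92.8, 50.9, 21.6 and 14.3 in side 2. Side 2 was higher in each segment, by the most in segment 1. *Col1a2*, the partner chain, had 1433 and 5093 UMIs (+1.27; interval 1.18 to 1.35), with 46.6, 72.2, 33.8 and 14.8 in side 1 and 124, 73.4, 34.9 and 24.9 in side 2. In segments 2 and 3 its sides were thus nearly equal, and side 2 was higher in segments 1 and 4. Its ratio over all spots also reflects the unequal weight of the segments. Segment 4, the lowest on both sides, held 67.9% of the UMIs of side 1 and 18.7% of those of side 2. *Sparc* (+1.78), osteonectin, had the same course as *Col1a1*.

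*Ibsp*, bone sialoprotein, and *Spp1*, osteopontin, which nucleate or regulate mineral, were higher in side 2 mainly at 1 end of it. *Ibsp* had 43 and 242 UMIs (+1.93; interval 1.46 to 2.43), of which segment 1 of side 2 held 201, and without segment 1 its log2 ratio was -0.19. *Spp1* had 133 and 387 UMIs (+0.98; interval 0.69 to 1.27), with 2.72, 2.77, 3.22 and 2.23 by segment in side 1 and 12.9, 5.33, 1.22 and 0.49 in side 2. In segments 3 and 4 side 1 was the higher one, and without segment 1 the log2 ratio was +0.22. *Bglap*, osteocalcin of mature osteoblasts, had more UMIs in side 1 although *Col1a1* was higher in side 2: it had 71 and 55 UMIs (-0.93; interval -1.47 to -0.40), with 2.72, 1.85, 1.66 and 1.04 in side 1 and 0, 1.35, 0.56 and 0.42 in side 2. Side 1 was higher in each segment. Per 10000 UMIs, *Bglap* had 2.68 and 1.88 in sides 1 and 2 and 1.76 in the rest of the section. *Phospho1*, a phosphatase that initiates mineralization, had 33 and 21 UMIs (-1.21; interval -2.08 to -0.38), and its segments did not overlap (0.54 to 0.78 compared with 0.25 to 0.30). These segments held only 2, 5, 8 and 18 UMIs in side 1 and 4, 7, 6 and 4 in side 2. *Phospho1* was not higher in bone spots, with 1.24 and 0.72 UMIs per 10000 in sides 1 and 2 and 1.75 in the rest of the section. *Runx2*, the transcription factor of osteoblast commitment, had 13 and 42 UMIs, and *Alpl*, alkaline phosphatase, had 9 and 15.

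In the spots with little muscle, the ratios of most of these bone matrix genes moved toward side 1. *Col1a1* was at +0.97, *Sparc* at +0.76, *Col1a2* at +0.20, *Ibsp* at +1.15, *Bglap* at -1.09 and *Phospho1* at -1.60. *Spp1*, at +1.03, stayed close to its value over all spots (+0.98). The list as a whole had 4 of 9 members at least 2-fold higher in side 2 and 2 in side 1 (median +0.97). Without shaft segment 4, which held none of these spots of side 1, the counts were the same (median +0.99).

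Osteocyte genes were close to the limit of detection. The 9 genes of the list had 73 UMIs in side 1 and 96 in side 2, 0.0275% (0.0216 to 0.0346) and 0.0329% (0.0266 to 0.0401) of all UMIs, and none of them reached 50 UMIs. *Dmp1*, which binds mineral around osteocytes, had 20 UMIs in 18 spots of side 1 and 8 UMIs in 8 spots of side 2 (-1.88; interval -3.28 to -0.64). *Sost*, which encodes the Wnt antagonist sclerostin of mature osteocytes, had 14 UMIs and 5 UMIs (-2.05; interval -3.87 to -0.49). Of these, 16 of *Dmp1* and 11 of *Sost* came from segment 4 of side 1, which is also the most deeply counted segment. Per 10000 UMIs, *Dmp1* had 0.75 and 0.27 in sides 1 and 2 and 0.51 in the rest of the section. The same values of *Sost* were 0.53, 0.17 and 0.48. *Pdpn* (+1.76), podoplanin of early osteocytes and of other stromal cells, had 8 and 40 UMIs. *Fbln7* (+0.38) had 13 and 25 UMIs and *Ackr3* (+0.27) had 9 and 16, with intervals that included equal levels. *Dmp1* and *Sost* thus went toward side 1, and *Pdpn*, *Fbln7* and *Ackr3* toward side 2. Summed, the 9 genes were at -0.17 (interval -0.62 to 0.29), so the list had no common direction. *Mepe* had 2 UMIs and 1 UMI, *Phex* 2 and 0, and *Fgf23* 0 in both sides. Cartilage genes were rarer still: the 10 genes had 16 and 43 UMIs, of which *Acan*, aggrecan, had 1 and 22, with 17 in segment 1 of side 2, and *Col2a1*, type II collagen, had 14 and 6.

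**Figure D5:**
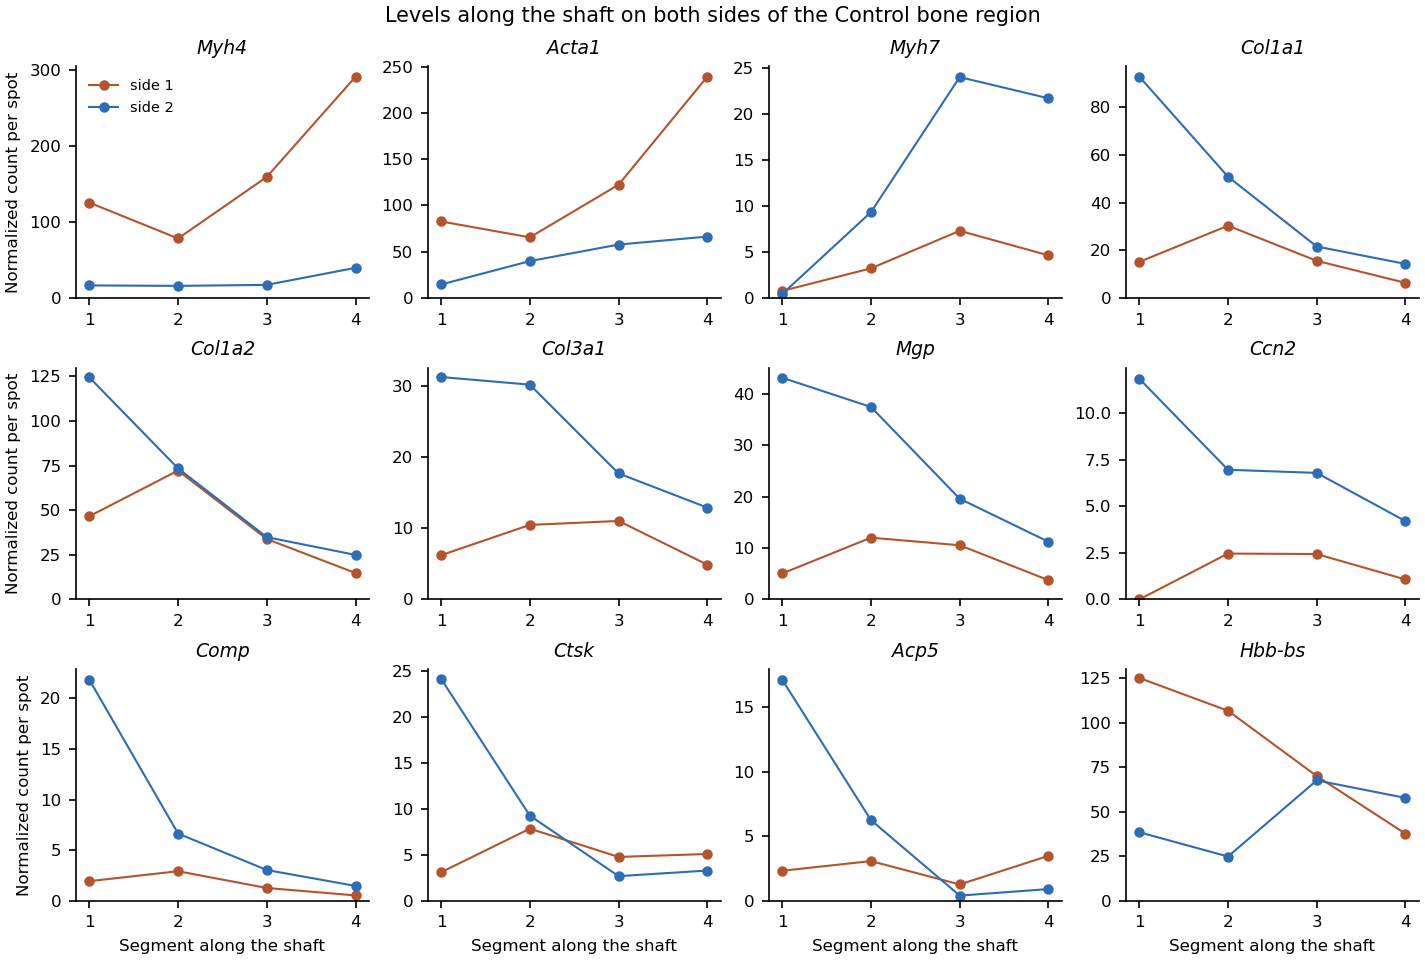
Normalized counts per spot (y axes, each from 0) of 12 genes in the 4 segments along the shaft (x axes) for side 1 and side 2, as 1 sum per point and no replicates. *Myh4* and *Acta1* are higher in side 1 and *Col3a1*, *Mgp* and *Ccn2* in side 2 at each level; *Col1a2* is nearly equal in segments 2 and 3, and *Ctsk* and *Acp5* exceed side 1 in segments 1 and 2 of side 2 and fall below it in segments 3 and 4.

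Osteoclast genes differed more along side 2 than between the sides. Of 5 members with at least 50 UMIs (of 16), 1 was at least 2-fold higher in side 2 and none in side 1 (median +0.64). *Ctsk*, cathepsin K, the main collagen-degrading protease of osteoclasts, had 279 and 746 UMIs (+0.86; interval 0.66 to 1.06). By segment it had 3.11, 7.85, 4.78 and 5.09 in side 1, and 24.1, 9.27, 2.69 and 3.29 in side 2. *Acp5*, tartrate-resistant acid phosphatase, had 156 and 470 UMIs (+1.03; interval 0.76 to 1.30), with 2.33, 3.08, 1.27 and 3.48 in side 1 and 17.1, 6.25, 0.41 and 0.91 in side 2. *Mmp9* (+0.34), a gelatinase of osteoclasts and granulocytes, had 9.97 in segment 1 of side 2 and 0.71 in segment 3. For these 3 genes side 2 was the higher one in segment 1 and side 1 in segments 3 and 4. *Car2* (-0.81), the carbonic anhydrase that supplies acid for resorption and is also abundant in red cells, had its highest value in segment 1 of side 1 (4.27). In the spots with little muscle, 1 of 5 was at least 2-fold higher in side 2 and 1 in side 1 (median +0.24).

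Matrix metalloproteinases and their inhibitors followed the collagens on the whole, with 5 of 6 (of 13) at least 2-fold higher in side 2 and a median of +1.43 (2 of 6 and +0.78 in the spots with little muscle). *Mmp2* (+1.73) and *Timp2* (+1.46), expressed by fibroblasts, were higher in side 2 in each segment. *Mmp13*, a collagenase of osteoblasts and hypertrophic cartilage, had 62 and 241 UMIs (+1.40), with 9.91 in segment 1 of side 2 and 0.41 and 0.42 in segments 3 and 4, against 3.88, 2.46, 0.88 and 0.80 along side 1. Genes of collagen folding and crosslinking gave 6 of 10 (of 20) at least 2-fold higher in side 2 and none in side 1 (median +1.13). In the spots with little muscle they gave 8 of 10. *Loxl1* (+2.02), a lysyl oxidase, and *Pcolce* (+1.71), a procollagen processing enhancer, were separated in all segments. Past 2-fold in side 2 and separated were 3 of the 10. General genes of the secretory pathway differed less, with 1 of 8 (of 15 in the files and 16 in the list) at least 2-fold higher in side 2 and a median of +0.41: *Kdelr2* (+0.77), *Hspa5* (+0.51), *Hsp90b1* (+0.50) and *Pdia3* (-0.08).

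Granulocyte and erythroid genes, of the blood-forming marrow, were past 2-fold for some members, in each case toward side 1. Of 5 granulocyte genes with at least 50 UMIs (of 14), 2 were at least 2-fold higher in side 1 (median -1.0), with *S100a8* (-1.33) and *S100a9* (-2.04), the calprotectin chains, both separated in all segments. This separation rests on few UMIs. *S100a8* had 41 and 24 UMIs and *S100a9* had 39 and 14. By segment, *S100a9* had 3, 6, 5 and 25 UMIs in side 1 and 2, 3, 6 and 3 in side 2. Erythroid genes gave 2 of 5 (of 8 in the files and 10 in the list; median -0.81), but 0 of 5 with library totals (median -0.39) and 0 of 5 without shaft segment 2 (median -0.31), where granulocyte genes gave 1 of 5 each. Of all genes, 8.27% and 17.4% were at least 2-fold higher in side 1 in these settings. *Hbb-bs*, a beta globin, had 2998 and 3471 UMIs (-0.35; interval -0.42 to -0.28), with 125, 107, 70.0 and 37.7 by segment in side 1 and 38.5, 24.9, 67.6 and 57.7 in side 2. Side 1 was the higher one in segments 1 and 2 and the lower one in segment 4. Over library totals *Hbb-bs* had 113 UMIs per 10000 in side 1 and 119 in side 2, so its direction depended on the scaling. *Alas2* (-1.32), the heme synthesis enzyme of erythroid cells, had 5.83, 5.23, 2.83 and 1.55 in side 1 and 0.50, 0.53, 1.12 and 2.24 in side 2. In the spots with little muscle, 5 of 5 granulocyte and 5 of 5 erythroid genes were at least 2-fold higher in side 1 (medians -2.13 and -1.66). Without shaft segment 4, which held none of these spots of side 1, both lists likewise gave 5 of 5 (medians -1.92 and -1.68).

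Among genes with at least 50 UMIs, those of macrophages, Schwann cells and endothelium were mostly higher in side 2, and those of the other lists of this kind mostly did not pass 2-fold. Of 7 macrophage genes with at least 50 UMIs (of 15), 5 were at least 2-fold higher in side 2 (median +1.36; 3 of 7 and +0.72 in the spots with little muscle), with *C1qa* (+1.45), a complement chain, at 0 to 0.77 by segment in side 1 and 1.13 to 1.93 in side 2. *Ctss* (+1.75), cathepsin S, was likewise separated, and 3 of the 7 members were past 2-fold in side 2 and separated. Class II histocompatibility genes were not past 2-fold in either direction (0 of 3, of 8), with *Cd74* at +0.52. Schwann cell genes gave 2 of 2 (of 9), with *Mbp*, myelin basic protein, at 21 and 77 UMIs (+1.31; interval 0.60 to 2.08). With little muscle, 0 of 2 were past 2-fold (median +0.65). Endothelial genes gave 2 of 3 (of 13), with *Plvap*, of fenestrated vessels, at 15 and 69 UMIs (+1.64), and 1 of 3 in the spots with little muscle. Without shaft segment 4 they gave 0 of 3. Members under 50 UMIs, summed, were at +0.21 (interval -0.39 to 0.83) for macrophage and +0.24 (-0.16 to 0.64) for endothelial genes. For Schwann cell genes they were at +1.46 (0.72 to 2.26). Divided across the shaft, macrophage, Schwann cell and endothelial genes took 0.207%, 0.141% and 0.148% of the UMIs outside side 2. In its bone spots they took 0.211%, 0.0996% and 0.114%, so these levels were not particular to the bone spots. Smooth muscle and pericyte genes gave 1 of 6 (of 11), in which *Des* (-0.81), desmin, is also a gene of skeletal muscle. Their members under 50 UMIs, summed, had 23 and 97 UMIs and went toward side 2 (+1.51, interval 0.85 to 2.24). Adipocyte genes gave 0 of 3 (of 11), and their members under 50 UMIs, summed, had 51 and 37 UMIs and went toward side 1 (-1.02, interval -1.68 to -0.39). The marrow stroma list gave 1 of 3 (of 10), which was *Adipor1* (-1.75) and higher in side 1. *Cxcl12* (+0.74) and *Pdgfra* (+0.66) of this list went toward side 2, so the list had no common direction.

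Genes of oxidative phosphorylation were mostly higher in side 1, by a count that depended on how spots were scaled and weighted. Of 13 subunits of oxidative phosphorylation with at least 50 UMIs (of 15 in the files and 18 in the list), 10 were at least 2-fold higher in side 1 (median -1.32). With library totals 3 of 13 were, with equal weight for every spot 5, as means of the shaft segments 3, as means of the major axis segments 1 (median -0.39), and without shaft segment 4 there were 2 (median -0.77). Of all genes, 8.27%, 13%, 13.8%, 15.1% and 14.8% were at least 2-fold higher in side 1 in these settings, in the same order. *Cox6a2*, the muscle form of a cytochrome oxidase subunit, had 806 and 499 UMIs (-1.25; interval -1.42 to -1.09), with 10.1, 6.93, 8.87 and 19.2 in side 1 and 1.88, 5.83, 9.33 and 8.48 in side 2. In segments 2 and 3 the sides were thus close. In the spots with little muscle 1 of 13 subunits was at least 2-fold higher in side 1 and 1 in side 2 (median -0.27). Of 9 genes of muscle stress and fuel choice with at least 50 UMIs (of 14), 4 were at least 2-fold higher in side 1 (median -0.94; 2 of 9 and -0.15 without shaft segment 4). They included *Pdk4* (-1.78), which limits glucose oxidation, and *Trim63* (-1.47), a ubiquitin ligase of muscle atrophy. *Cdkn1a*, the cell cycle inhibitor p21, was at +0.67. With little muscle, 1 of 9 was at least 2-fold higher in side 1 and 1 in side 2.

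Among genes separated over the 4 segments of the major axis, the 10 lowest encode proteins of muscle contraction, calcium handling or energy use, and 8 of them belong to the fast muscle list: *Myh4*, *Phkg1* (-3.10), a subunit of phosphorylase kinase, *Pvalb*, *Eno3* (-2.88), *Pygm* (-2.83), *Aldoa* (-2.80), *Atp2a1*, *Actn3* (-2.68), *Myom2* (-2.60) and *Casq1* (-2.60). *Eno3*, *Aldoa* and *Pygm* encode the muscle enzymes enolase, aldolase and glycogen phosphorylase. The 10 highest were less abundant. *Chpf*, a chondroitin polymerizing factor, had 2 and 62 UMIs (+4.39; interval 2.48 to 7.47) and was found in 2.99% of the spots of side 1 and 45.3% of those of side 2. *C1qtnf2* (+2.92), *Tuba1a* (+2.87), *Scarf2* (+2.48), *Eva1b* (+2.47), *Ccn2*, *Selenom* (+2.14), *Fbn1* (+2.13), *Nbl1* and *Rcn3* (+2.05) completed them. *Tuba1a*, an alpha tubulin, had 1.61 to 2.32 by segment in side 2 and 0.15 to 0.49 in side 1. *Fbn1* encodes fibrillin 1 of elastic microfibrils, and *Rcn3* a chaperone of the secretory pathway.

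The bone region of the Loaded section, divided by the same rule, was less uneven. The sides of both sections were thinned to the same totals, 223309 UMIs in side 1 and 185711 in side 2, and 504 of 1282 genes (39.3%) in Control and 47 of 1507 genes (3.12%) in Loaded were then at least 2-fold apart in either direction. The median size of the log2 ratio was 0.81 in Control and 0.29 in Loaded. Fast muscle genes had a median of -2.59 in Control and +0.85 in Loaded, and collagens of +1.96 and -0.08. Side numbers do not stand for the same anatomical side in both sections, 12 of the 146 spots of the Loaded region crossed its bands, and with 1 section each the condition and the section cannot be told apart.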

How the data were processed

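The authors deposited UMI counts per gene and spot for 1 Visium section of each group, made with SpaceRanger (version 2.0.0) on the mm10 build named in the submitters' processing notes, and listed the barcodes of the bone region chosen on the stained section. Of 19465 gene identifiers, 19451 (99.9%) matched GENCODE M21, from which coordinates were taken. Several listed genes, among them *Bglap2*, *Hba-a1* and *Tpm3*, were not analysed here, and 2 members of the Schwann cell list were taken out of it and are not reported.

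Spot positions were computed from array columns (50 µm) and rows (86.6 µm). Size factors were computed over the bone spots with scran (version 1.30.0, R version 4.3.3), TMM factors with edgeR (version 4.0.16), and all other values in Python (version 3.11.15) with numpy (version 2.4.6), pandas (version 2.3.3) and scipy (version 1.17.1). Genes with fewer than 50 UMIs over both sides were not counted in the lists, and a side at 0 was set to 3 UMIs for a ratio. The likelihood ratio test over spots used by the authors was not repeated, because the spots of 1 section are not replicates. The computation was tested on simulated counts.

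Named genes were the 10 highest and 10 lowest ratios among genes separated over the segments of the major axis, up to 4 members of each list with the most UMIs, and genes that the study discusses by name. *Myh1*, *Myh2*, *Mybpc2*, *Ibsp*, *Phospho1*, *Runx2*, *Alpl*, *Chad*, *Col12a1*, *S100a9*, *Pdk4* and *Lum* were named after their values were seen. The division into sides and the gene lists were chosen with earlier results of these data known. Segments along the shaft, contiguous bands, the limit on the muscle share and the division of neighbouring spots across the shaft were chosen after seeing the data. Alternatives changed the scaling, the minimum of UMIs, the division into sides and the spots or segments included.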

Additional observations from a re-analysis of the deposited data

How the results depend on the processing

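No paired analysis was possible because both sides came from 1 section and no test was made. Of 90 named genes past 2-fold, 67 kept their direction under all 19 alternatives that gave a ratio, 11 changed sign only as floor values (a side with 0 UMIs set to 3) and 12 with UMIs on both sides. Of 15 list medians past 2-fold, 11 kept their direction. The counts of genes at least 2-fold higher in side 2 and in side 1 (325 and 343) became 545 and 166 with library totals, 198 and 567 with a division at the largest gap, 853 and 643 at a minimum of 20 UMIs, 66 and 93 at 200 UMIs and 3149 and 3721 with no minimum (918 and 2008 of these with a side at 0 UMIs). Without shaft segment 4 they were 205 and 142. The count for side 2 was 192 without major axis segment 2 and 208 without shaft segment 2. The count for side 1 was 139 without major axis segment 4 and 214 without the 33 spots nearest to the other side. In spots with a muscle share below 20% it was 123. With spots left out, fewer genes reached the minimum of UMIs and were counted. Over the same 2007 genes, the shares were 16.2% (side 2) and 17.1% (side 1) in the main setting. Without shaft segment 4 they were 14.7% and 14.8%. For side 2 they were 15.9% without major axis segment 2 and 16.9% without shaft segment 2. For side 1 they were 14.1% without major axis segment 4, 14.8% without the 33 spots and 13.1% at a muscle share below 20%. Separated genes higher in side 1 were 46 along the major axis and 99 along the shaft. Fast muscle shares next to the sides, divided across the shaft, were 38.0%, 5.49%, 9.98% and 6.59% (outer 1, outer 2, inner 1, inner 2).

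The division at the largest gap set 6 spots against 125. In 299 of its 567 genes the 6 spots held 0 UMIs, so that the value is only that of the floor of 3 UMIs and gives no direction. The same holds for *Chpf* (-1.23), *Acan* (-2.70), *C1qtnf2* (-1.29), *Scarf2* (-0.43), *Fbn1* (-0.87), *Ncmap* (-2.27), *Pdpn* (-1.64), *Plvap* (-0.83), *Mbp* (-0.61), *Thy1* (-1.70) and *Eng* (-1.04), and for 2 of 3 genes behind the median of endothelium (-0.90) and 1 of 2 behind that of Schwann cell genes (-0.23). With UMIs in the 6 spots, the sign changed for *Eva1b* (-0.15), *Mmp13* (-0.77), *Runx2* (-1.52), *Atp5b* (+0.47), *Cox8b* (+0.27), *Acta1* (+0.31), *Myom2* (+0.62) and *Myh1* (+0.47). The median of oxidative phosphorylation genes, of which 2 of 13 were at the floor, was +0.0132. Without major axis segment 1, *Mmp13* was at -0.23, *Acp5* at -0.71 and *Ibsp* at -1.0, and without shaft segment 1 *Ibsp* was at -0.19. The log2 ratio of Igkc was -0.84 without major axis segment 2 and -0.0355 without shaft segment 2, and the median of B and plasma cell genes was -0.28 without major axis segment 2. As means of the major axis segments, the log2 ratio of Atp5b was +0.0162 and the log2 ratio of Chad was -0.0249. With a muscle share below 20%, *Atp5b* was at +0.15 and *Cox8b* at +0.39. The cause was not tested. A limit on the muscle share of 10% was not run, because it left 1 spot of side 1. Genes under 50 UMIs, osteocyte and cartilage genes among them, are limited by depth.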

Other observations

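Proliferation genes had 1 member with at least 50 UMIs (of 12 in the files). *Mki67*, a marker of cycling cells, had 31 UMIs in side 1 and 23 in side 2 (-0.99), with its highest normalized count in segment 1 of side 1 (3.11) and lower values in segments 2, 3 and 4 (1.69, 0.49 and 0.21). Side 2 had 0.19 to 0.41 in its segments. *Cfd*, the adipocyte protease adipsin, had 13 of its 24 UMIs of side 1 in the same segment 1, which held 6 spots.

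Of the B and plasma cell genes, 2 had at least 50 UMIs (of 13 in the files), and 1 was at least 2-fold higher in side 2. The members under 50 UMIs, summed, went the other way, with 63 and 59 UMIs (-0.66; interval -1.19 to -0.12). *Igkc*, the constant part of the antibody kappa chain, had 26 and 142 UMIs (+1.89), and 121 of the 142 lay in segment 2 of side 2. Within 1 spot it reached a normalized count of 41.0.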
